A study of Mus musculus with 6 samples.

Results

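The 6 libraries of the series were ordered along a 3-gene hypoxia score, and the rest of the epithelial tumor cell transcriptome was described against that order. The score was the mean of log2(CPM + 1) of Vegfa, Slc2a1 and Car9 in a tumor, where CPM is the count of a gene scaled to a common library total over all genes. All 6 of the 6 tumors entered as members, and no tumor was placed in a class, because the labels give none. The order was therefore chosen by the measured levels of these 3 genes, and their values are given as a description without a test. Of 47643 genes in the files, 6866 other genes whose mean reached 20 CPM were ranked by their correlation with the score. Just inside this limit lay Slc38a3 at 20.01 CPM and Arrdc4 at 20.02 CPM, and just outside lay Ugdh at 19.99 CPM and Pacs2 at 19.97 CPM.

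All tumors arose in the MMTV-PyMT model, on the line FVB/N-Tg (MMTV-PyVT)634Mul/J, in which the mouse mammary tumor virus promoter drives the polyoma middle T antigen in mammary epithelium. Each mouse had received B20-4.1.1, an antibody against VEGF-A, at 5 mg/kg intraperitoneally 2 times per week for 6 weeks from 7 weeks of age. Tumor cells were sorted as CD45-EPCAM+, with CD31 and PDGFRα also excluded per the study's methods, so each library is a bulk sample of epithelial cells. No library from an untreated mouse was analysed here, so the values describe spread among treated tumors and not an effect of the antibody. Mouse identifiers carried 2 prefixes, QAF for tumors 1, 4, 5 and 6 and QSD for tumors 2 and 3.

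Cells short of oxygen stabilize the α subunit of hypoxia-inducible factor (HIF), which pairs with ARNT and binds a short core motif near its target genes. Its targets include VEGF-A, the main signal for new vessels and the ligand that B20-4.1.1 blocks, the glucose transporter GLUT1 encoded by Slc2a1, the pH-regulating carbonic anhydrase encoded by Car9, enzymes of glycolysis, collagen hydroxylases and the oxygen-sensing prolyl hydroxylases that limit HIF itself. In solid tumors these genes mark poorly perfused regions, and several of them also respond to growth factors and to nutrient stress.

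The bases just before the start sites of 6 genes are shown because these genes carry the order or the results below. Vegfa, Slc2a1 and Car9 make up the score, and Kdm3a had the highest rank correlation of the HIF targets outside it that reached 20 CPM. Gja1 and Vim had the steepest slopes on the score among ranked genes with an unadjusted p under 0.05 by both correlations. Each line holds the 100 bases upstream of 1 RefSeq start on GRCm38.p6, written 5′ to 3′ on the strand of the gene. Capitals mark ACGTG, a core of the HIF motif, or its reverse complement CACGT.
Vegfa, chr17:46032378-46032477, minus strand: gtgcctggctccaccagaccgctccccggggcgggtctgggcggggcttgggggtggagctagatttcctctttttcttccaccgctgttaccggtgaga
Slc2a1, chr4:119108645-119108744, plus strand: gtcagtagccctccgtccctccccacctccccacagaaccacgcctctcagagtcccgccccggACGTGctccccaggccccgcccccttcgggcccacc
Car9, chr4:43506926-43507025, plus strand: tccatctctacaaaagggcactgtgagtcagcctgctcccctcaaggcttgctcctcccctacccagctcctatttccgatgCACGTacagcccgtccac
Kdm3a, chr6:71632918-71633017, minus strand: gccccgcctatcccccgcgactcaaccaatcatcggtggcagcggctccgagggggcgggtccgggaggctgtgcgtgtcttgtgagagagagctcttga
Gja1, chr10:56377200-56377299, plus strand: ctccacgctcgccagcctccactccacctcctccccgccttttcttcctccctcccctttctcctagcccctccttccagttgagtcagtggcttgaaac
Vim, chr2:13574211-13574310, plus strand: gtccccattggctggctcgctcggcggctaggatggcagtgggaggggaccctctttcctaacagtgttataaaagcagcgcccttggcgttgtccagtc

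Slc2a1 and Car9 held the marked motif within these 100 bases, and the others shown did not. Vegfa and Kdm3a have further RefSeq starts that are not shown, and the other Vegfa start held the motif within 250 bases upstream, farther away than 100 bases. In the 250 bases upstream, on either strand, ACGTG was present in 18.5% of all genes with a promoter in the table (4998 of 27025) and in 26.6% of the ranked genes that matched it (1460 of 5483). Of the HIF target genes ranked, 10 of 18 with a promoter held it (55.6%). Among the genes with an unadjusted p under 0.05 by both correlations, described below, 31 of 96 positive ones (32.3%) and 15 of 58 negative ones (25.9%) held it. The related core GCGTG, not marked above, occurs in the Kdm3a line and, as its reverse complement, in the Slc2a1 and Gja1 lines. It was more frequent than ACGTG throughout, with 30.9% of all genes, 53.6% of ranked genes, 58.3% of the positive and 44.8% of the negative ones. A match describes letters in a window and is not evidence of binding.

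The score ran from 5.255 in tumor 2 to 6.812 in tumor 5, with a median of 5.636 and a standard deviation of 0.622 (n = 6 tumors). From lowest to highest the order was tumors 2, 1, 6, 3, 4 and 5, with scores of 5.255, 5.271, 5.515, 5.757, 6.302 and 6.812. Below, 6 values in a row follow this order of tumors. In bulk samples, fewer cells of a type and less RNA per cell cannot be told apart. Tumors 2 and 1 differed by 0.0157, less than the counting error of that difference (SE 0.12), so their order is not resolved. The other neighbours differed by 0.242 to 0.544 with counting errors of 0.064 to 0.095. Their order also depended on the score. A TPM-based score placed tumor 6 below tumor 1, and Slc2a1 alone gave the order 2, 3, 6, 1, 4 and 5. The widest gap, between tumors 3 and 4, was 0.349 of the whole range, and the whole range corresponds to a 2.94-fold difference.

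Vegfa was 48.2, 36.3, 41.6, 63.0, 103 and 139 CPM. Slc2a1 was 92.1, 156, 146, 137, 185 and 212 CPM. Car9 was 11.2, 8.82, 14.3, 17.0, 24.5 and 46.5 CPM. All 3 genes were highest in tumor 5 and next highest in tumor 4, but they ordered the other 4 tumors differently. Car9 rested on 28 to 233 counts per tumor, and its exact Poisson 95% intervals, which cover counting error only, were 7.41 to 16.1 CPM in tumor 2 and 40.7 to 52.9 CPM in tumor 5. The plot of the score and its genes shows these values with their intervals.

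**Figure D1:**
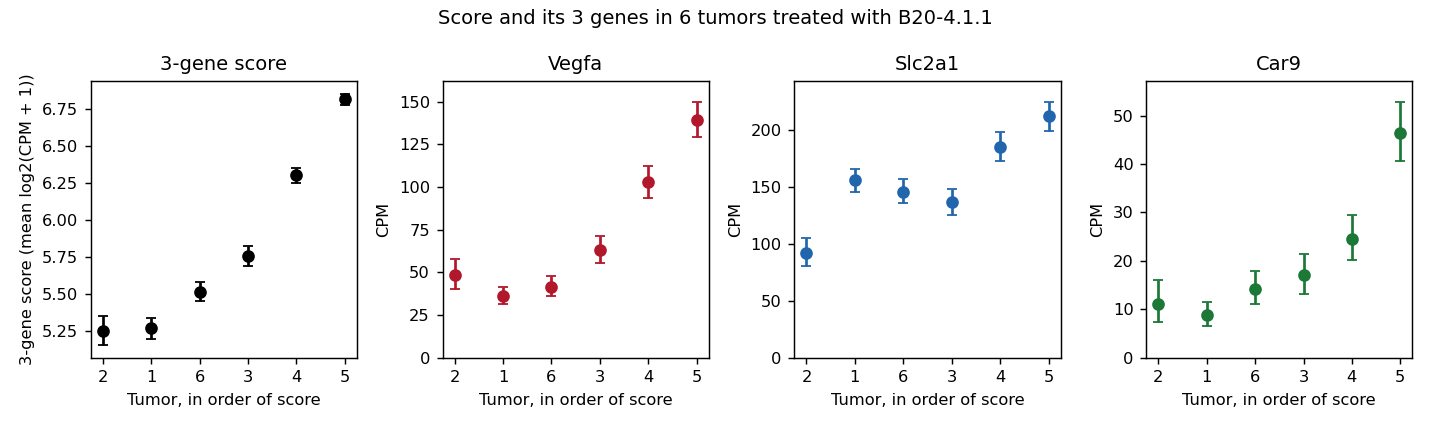
The 3-gene score (bars: counting SE) and the CPM of Vegfa, Slc2a1 and Car9 (bars: exact Poisson 95% intervals) in the 6 tumors, ordered by score. Tumors 4 and 5 are the highest for all 3 genes, with the score at 6.302 and 6.812, while the other 4 tumors change places from gene to gene.

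Several features of the libraries bear on what follows. Counts on genes ranged from 2509482 to 5893246 per tumor and had an r of 0.221 with the score. The number of genes with a count ran from 16074 to 17799 and had the same order as the score (rho = 1.0, exact permutation p = 0.00278, adjusted p = 0.0333 over 12 library and marker measures; r = 0.8, adjusted p = 0.45). The share of counts on mitochondrial genes, 7.5% to 14.4%, had an r of 0.738 and a rho of 0.829 (adjusted exact permutation p = 0.45 and 0.35). Library 1 stood apart, with a median similarity to the rest (correlation over genes) of 0.788, where the remaining 5 had 0.905 to 0.939, and it held the highest value of 40.0% of the ranked genes. The part of these features in the results was not tested, and values without tumor 1 are given beside the list medians that it moves most. Luminal markers were high in every tumor (3960 to 4870 CPM summed over 7 keratin, claudin and adhesion genes), endothelial markers summed to 1.59 to 3.88 CPM, and the endothelial genes Emcn and Cldn5 were at 0 in all 6. Immune markers summed to 273 CPM and hemoglobin and heme synthesis markers to 864 CPM in tumor 3, against 18.1 to 60.1 CPM and 5.66 to 69.4 CPM in the other tumors.

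No gene passed correction for the number of genes ranked. Pearson's r and Spearman's rho were each tested by exact permutation over the 720 orders of the tumors (two-sided), and the smallest p they allow are 0.00139 and 0.00278. The smallest Benjamini-Hochberg adjusted p was 0.815 for r and 0.645 for rho. An unadjusted p under 0.05 was reached by 5.01% of genes for r (344), by 5.17% for rho (355) and by 2.85% for both (196 genes). For r this is close to the 5% that the threshold passes by its definition. The exact permutation p of rho comes in steps, and without ties it is 0.0333 at an absolute rho of 0.886 and 0.0583 at 0.829. The threshold thus passes less than 5% of the orders for rho, and the 5% is no measure for both together. Of these 196, 127 were positive (1.85% of the genes ranked) and 69 negative (1.0%). With TMM-scaled CPM the balance turned, with 107 positive and 188 negative genes, and with DESeq2 size factors there were 93 positive and 173 negative ones, so no direction is read from these numbers. The median r over all genes was 0.014, and 50.8% of genes had a positive r. The genes below are therefore named by rank and slope, with their values. Those that passed the DESeq2 test described next are marked with its adjusted p.

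The count varied with the tumors included. Without tumor 5, 30 genes had an unadjusted p under 0.05 by both measures, without tumor 4 there were 65, without tumor 3 there were 75, without tumor 2 there were 105, without tumor 1 there were 129 and without tumor 6 there were 135. With 5 tumors the smallest p possible rises to 0.00833 for r and 0.0167 for rho. Of the 127 positive genes 112 were highest in tumor 5, and of the 69 negative genes 67 were lowest there, which selection on a score that is highest in tumor 5 largely fixes.

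The slope on the score was also tested on the counts, with results that differed between tools. With edgeR's quasi-likelihood test of the slope on the score, 0 of 10413 genes (0.0%) had an adjusted p under 0.05 and 846 (8.12%) had an unadjusted p under 0.05. With DESeq2's Wald test, 35 of 14977 genes (0.234%) had an adjusted p under 0.05, 32 of them positive. All 32 positive calls were highest in tumor 5, and 14 of the 35 reached a mean of 20 CPM. Of the genes described below, DESeq2 called Adamts1, Gja1, Vim, Ncam1, Enc1, Tnc, P4ha2, Dusp6 and Plod2 as positive and Ucp2 as negative. The other 2 negative calls were Lao1 and Scgb2b27, with adjusted p of 0.00605 and 0.0168. Without tumor 5 DESeq2 called 0 of 21078 genes, with an unadjusted p under 0.05 for 104 positive and 107 negative genes.

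Among genes with an unadjusted p under 0.05 by both correlations, the 10 steepest positive slopes included Gja1, Vim and Tnc. Of these 10 genes 7, Gja1 and Vim among them, had a mean under 20 CPM without tumor 5 and so passed the CPM limit through that tumor. Gja1, which encodes the gap junction protein connexin 43, was 8.77, 3.05, 14.3, 9.46, 26.2 and 189 CPM. Vim, the intermediate filament vimentin, was 12.4, 10.0, 22.3, 19.4, 24.9 and 223 CPM. Tnc, the matrix glycoprotein tenascin C, was 15.1, 19.2, 21.1, 22.1, 26.4 and 130 CPM. For each of the 3 the other 5 tumors lay far below tumor 5, and only Tnc followed the score in every step. Slopes per unit of score in log2(CPM + 1) were 2.82 for Gja1 (r = 0.926, rho = 0.886), 2.26 for Vim (r = 0.899, rho = 0.886) and 1.56 for Tnc (r = 0.888, rho = 1.0). Without tumors 5 and 4, the farthest from the median score, r was 0.52 for Gja1, 0.805 for Vim and 0.8 for Tnc over 4 tumors. In edgeR the slopes were 2.97 ± 0.411 (SE), 2.48 ± 0.366 and 1.7 ± 0.298, with adjusted p of 0.121, 0.129 and 0.178, whereas the DESeq2 adjusted p were 1.65e-05, 0.00016 and 0.0138. On GRCm38 Gja1 lies at chr10:56377330-56402513, Vim at chr2:13573927-13582826 and Tnc at chr4:63959785-64047015.

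Other genes of this kind had smaller levels. Ncam1, a neural cell adhesion molecule, was 7.17, 5.94, 17.0, 11.9, 21.1 and 89.3 CPM (r = 0.935, slope 2.0). Enc1, an actin-binding protein, was 13.2, 11.7, 20.9, 14.1, 36.4 and 85.3 CPM (r = 0.95, slope 1.63). Both were well above tumor 4 in tumor 5, with DESeq2 adjusted p of 0.00198 and 0.00605. The smallest p of the edgeR fit belonged to Adamts1, a secreted metalloprotease that cleaves proteoglycans, named here after its values were seen. It was 17.9, 13.1, 18.2, 16.7, 57.9 and 201 CPM, with a slope of 2.35 ± 0.292 (SE) and an adjusted p of 0.0935 in edgeR and 3.59e-06 in DESeq2. Its levels in tumors 1, 2, 3 and 6 were alike, and its r of 0.954 was 0.33 without tumors 4 and 5.

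Among the 20 genes of the mesenchymal and invasion list, 6 passed the CPM limit, and all of these had a positive r with a median of 0.776, against 0.0141 over all genes. Of these 6, Vim and Tnc had an unadjusted p under 0.05 by both measures, where 1.85% of all ranked genes were positive by both. Passing the limit depended on tumor 5 for some of them, so the number is a description only. Fn1, the matrix protein fibronectin, was 6.38, 61.1, 30.3, 17.2, 58.1 and 666 CPM (r = 0.804, rho = 0.6), and Sparc, a collagen-binding matrix protein, was 27.1, 27.0, 27.3, 20.4, 18.7 and 169 CPM (r = 0.656, rho = 0.0286). Both were high in tumor 5 alone, and without tumor 5 the r of Sparc was -0.918. The median of the list was 0.443 without tumor 5. The transcription factors Snai1, Snai2, Zeb1 and Zeb2, which direct loss of epithelial character, were at or under 6.39 CPM in every tumor. Cdh1, which encodes E-cadherin, was 1250, 1180, 1650, 1510, 1800 and 1600 CPM. Its r of 0.694 was the highest of the luminal list, where 10 of 14 ranked genes were negative, Krt8 (-0.59) and Krt18 (-0.776) among them. Fibroblast markers did not move with these genes: their sum was 22.0 CPM in tumor 5 and 15.1 to 25.9 CPM over all tumors. The sum of basal markers was highest in tumor 5, at 504 CPM against 132 to 289 CPM, mainly through Krt14 (359 CPM) and Krt17 (127 CPM). The basal markers Krt5 and Trp63 were lower in tumor 5, at 10.2 and 4.59 CPM, than in tumor 4, at 17.4 and 16.0 CPM. Acta2, Myh11 and Oxtr stayed at or under 3.71 CPM in every tumor. The part of basal markers in these values was not tested.

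Other steep genes act in signaling. Dusp6, a phosphatase that is induced by and limits ERK signaling, was 44.6, 51.9, 150, 137, 173 and 341 CPM (r = 0.899, rho = 0.943, slope 1.59, DESeq2 adjusted p = 0.0497). F2rl1, the protease-activated receptor PAR2, was 11.6, 7.81, 17.4, 11.6, 23.6 and 54.9 CPM (r = 0.926, slope 1.41). Dusp6 was low in tumors 1 and 2 and at 137 CPM or more in the other 4, and its r was 0.881 without tumors 4 and 5, whereas that of F2rl1 was 0.423. The transporter Slco3a1 and the lipase Abhd2 had slopes of 1.46 and 1.34, and Casc4 had 1.86.

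The 10 genes with the highest rank correlation spanned 1.47-fold to 3.02-fold from lowest to highest tumor. Rpf2, an assembly factor of the large ribosomal subunit, was 19.9, 21.2, 25.4, 26.7, 30.0 and 36.5 CPM (r = 0.971, rho = 1.0, slope 0.485). Hprt, the purine salvage enzyme often used as a reference gene, was 22.3, 27.3, 32.2, 34.4, 38.5 and 58.1 CPM (r = 0.953, rho = 1.0, slope 0.7). Mrpl45, a mitochondrial ribosomal protein, was 33.5, 33.8, 41.8, 42.9, 46.2 and 59.1 CPM (r = 0.959, rho = 1.0). In all 3 each tumor exceeded the one before it, with exact permutation p of 0.00139 for r and 0.00278 for rho, the smallest possible, and adjusted p of 0.815 and 0.645. The other leading genes by rank were Zfp266, Uaca, Epb41l2, Sdc1, Ipo7, Rragc and C1galt1, with slopes of 0.363 to 0.786. They include the heparan sulfate proteoglycan syndecan 1 (Sdc1), the nuclear import receptor importin 7 (Ipo7) and the Rag GTPase Rragc, which acts in nutrient sensing by mTORC1. In all, 19 genes had a rho of 1 and 3 had a rho of -1.

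**Figure D2:**
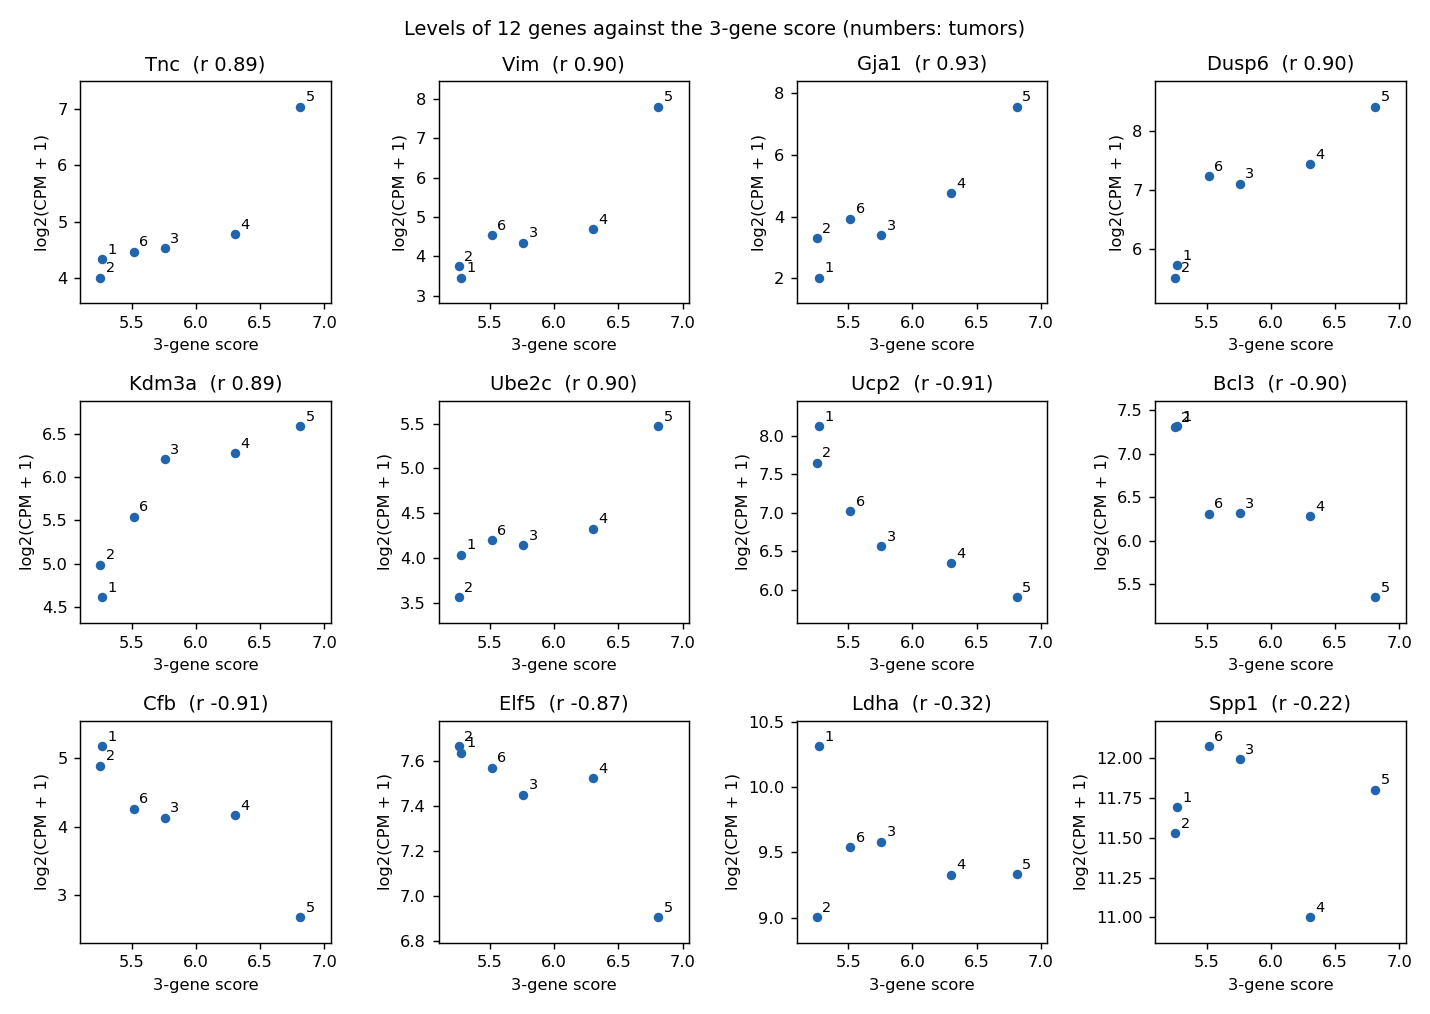
Level of 12 genes in log2(CPM + 1) against the 3-gene score, 1 point per tumor with its number. Gja1, Vim and Tnc are far higher in tumor 5 than elsewhere, Ucp2 is highest in tumors 1 and 2 and steps down from there, and Ldha and Spp1 (r of -0.315 and -0.221) show no order by score.

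Among genes with an unadjusted p under 0.05 by both correlations, the steepest negative slopes included Cfb, Ucp2 and Bcl3. Steeper slopes without such a p were seen for the milk protein gene Csn1s2a, at -1.7, and for Lao1 and Scgb2b27, at -1.73 and -1.6. Ucp2, a carrier of the inner mitochondrial membrane, was 200, 277, 129, 93.8, 80.4 and 58.9 CPM (r = -0.913, rho = -0.943, slope -1.22, DESeq2 adjusted p = 0.0176). Cfb, complement factor B, was 28.7, 35.1, 18.2, 16.5, 17.0 and 5.39 CPM (r = -0.914, rho = -0.886, slope -1.27). Bcl3, an IκB family member that acts with NF-κB, was 157, 158, 78.3, 78.8, 76.8 and 39.7 CPM (r = -0.902, rho = -0.886, slope -1.08). Ucp2 descended across the whole order apart from tumors 2 and 1, while Bcl3 stood at 3 levels, with tumors 3, 4 and 6 alike. Without tumors 4 and 5 the r of Ucp2, Cfb and Bcl3 was -0.943, -0.917 and -0.905, a sign that their selection over 6 tumors largely fixes.

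Myd88, the adaptor of Toll-like and interleukin 1 receptors, was 74.5, 74.5, 62.9, 70.1, 61.7 and 45.7 CPM (r = -0.911, rho = -0.943). Nfatc2, a calcium-regulated transcription factor, was 38.7, 34.3, 16.4, 25, 13.8 and 9.98 CPM (r = -0.893, slope -1.05). Tap1, which carries peptides to MHC class I molecules, was 51.4, 74.3, 39.6, 48.7, 38.1 and 31.5 CPM (r = -0.807, rho = -0.886, unadjusted exact permutation p = 0.0472 and 0.0333). Tap1 was the only 1 of 8 ranked MHC class I genes with an unadjusted p under 0.05 by both measures, where 1.0% of all ranked genes were negative by both, and the list had a median r of -0.0612 (0.00232 without tumor 1), with H2-K1, H2-D1 and B2m between -0.0565 and 0.32. Interferon-stimulated genes had a median of -0.287 (12 of 18 ranked, 4 positive), which was 0.258 without tumors 4 and 5. Immune markers had an r of -0.00899 with the score.

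Plekha6, Arid5a and Phf11d had a rho of -1.0. Plekha6 was 88.9, 66.9, 56.8, 51.4, 42.3 and 32.9 CPM (r = -0.943), Arid5a, an RNA-binding protein that stabilizes inflammatory mRNAs, was 54.2, 46.8, 31.2, 29.3, 26.8 and 23.6 CPM (r = -0.863), and Phf11d was 149, 98.1, 89.0, 82.7, 77.6 and 71.1 CPM (r = -0.769). Each stepped down in every tumor. Other low ranks were held by Wdr83, Itpk1, Tmem132a and Tmbim1, and the remaining steepest negative slopes, among genes with an unadjusted p under 0.05 by both correlations, by Mpi, Tmem259, Gadd45g, Lrrc75b, Dmkn and Anapc15 (-1.19 to -0.907).

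The label of the score was checked against HIF target genes outside it. Of 35 on the list 24 were ranked, 20 had a positive r, and the median was 0.507, against 0.0141 over all genes. Kdm3a alone had an unadjusted p under 0.05 by both measures (1 of 24, against 1.85% of all genes in that direction). It encodes a histone H3 lysine 9 demethylase and was 30.7, 23.4, 45.5, 73.0, 76.6 and 95.0 CPM (r = 0.889, rho = 0.943, exact permutation p = 0.0208 and 0.0167, slope 1.13). Its r was 0.969 without tumors 4 and 5, and the gene lies at chr6:71588972-71632990 on GRCm38.

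Most of the other HIF targets were high in tumors 4 and 5 but not ordered in the rest. Ndrg1, a stress-induced differentiation gene, was 192, 308, 205, 159, 451 and 491 CPM (r = 0.736). Egln3, an oxygen-sensing prolyl hydroxylase, was 65.4, 147, 67.2, 77.8, 191 and 194 CPM (r = 0.704), and Adm, the vasodilator peptide adrenomedullin, was 18.3, 64.1, 38.9, 25, 97.8 and 115 CPM (r = 0.739). Plod2, a collagen lysyl hydroxylase, was 19.5, 10.7, 9.37, 16.7, 39.4 and 64.9 CPM (r = 0.898, rho = 0.6, DESeq2 adjusted p = 0.0497). Of the 24 genes 8 were highest in tumor 4 and 10 in tumor 5, which is 33.3% and 41.7%, against 11.5% and 14.4% of all ranked genes, and the other 6 were highest in tumor 1. Without tumors 4 and 5 only 10 of 24 had a positive r and the median was -0.166, and without tumor 1 the median was 0.824. The mean deviation of the 24 genes from their own means, in log2(CPM + 1), was -0.38, 0.12, -0.3, -0.26, 0.45 and 0.38. Tumors 2, 6 and 3 thus rose slightly in order of score, and tumor 1 lay above all 3. Over tumors 1, 2, 3 and 6 together the list did not follow the score, with tumor 1 out of order. The label of a hypoxia gradient describes these genes mainly by their high values in tumors 4 and 5.

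Plin2, a lipid droplet coat protein, and Car12, a second carbonic anhydrase, were highest in tumor 1 and had negative r (-0.46 and -0.388). Plin2 was 513, 951, 344, 207, 537 and 268 CPM. Ddit4, an mTORC1 inhibitor, had an r of 0.508, Bhlhe40, a transcriptional repressor, 0.146, and Anxa2, a membrane-binding annexin, -0.235, and that of Anxa2 was 0.458 without tumor 1. P4ha2, a collagen prolyl hydroxylase below the CPM limit, was 7.97, 7.98, 8.39, 7.76, 17.7 and 46.1 CPM, with an edgeR slope of 1.6 ± 0.28 (SE) and an adjusted p of 0.178 in edgeR and 0.0176 in DESeq2. The transcript of HIF-1α itself, Hif1a, was 82.9, 147, 91.8, 113, 138 and 97.6 CPM and had an r of 0.0639. The oxygen-sensing list had a median r of -0.0293 (3 of 6 positive), which was 0.289 without tumor 1.

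**Figure D3:**
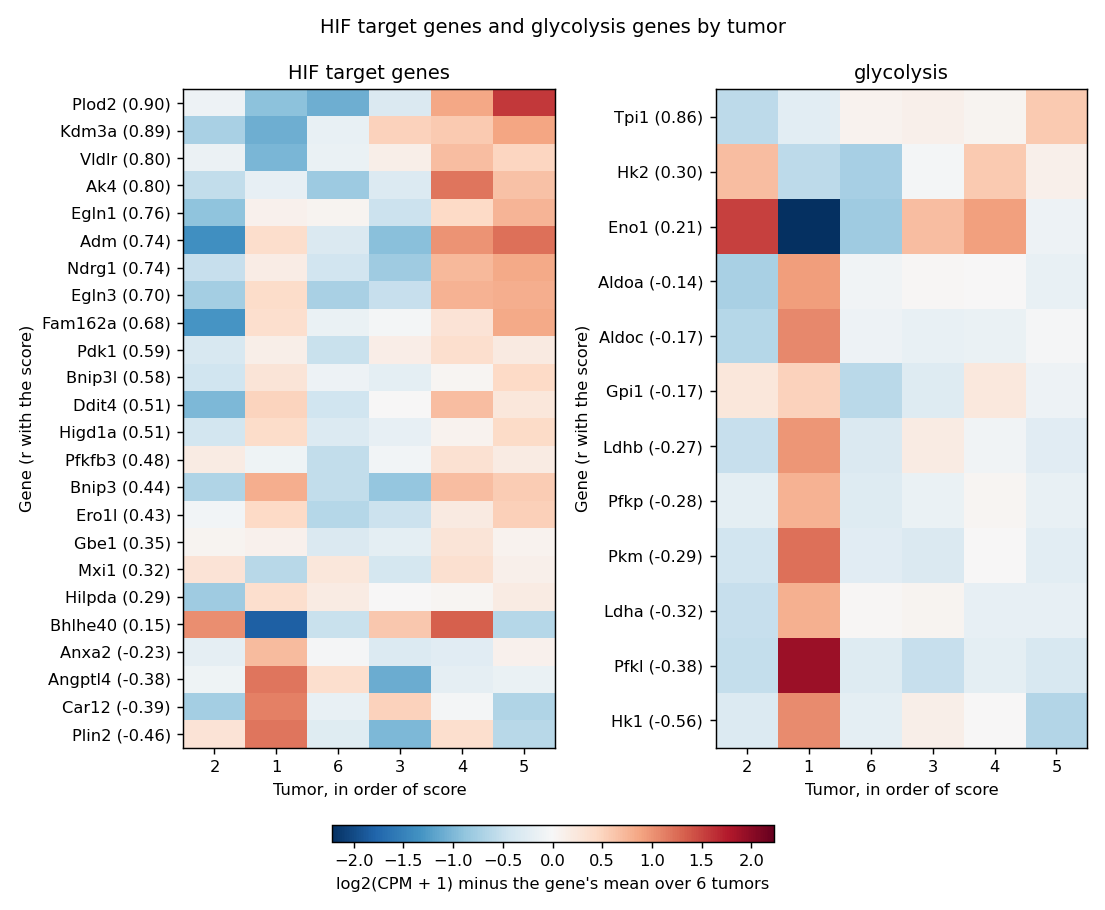
Deviation of each ranked HIF target gene (left) and glycolysis gene (right) from its own mean over the 6 tumors, in log2(CPM + 1), with tumors in order of score and genes in order of r. HIF targets are mostly red in tumors 4 and 5, where their mean deviation is 0.45 and 0.38. Of 12 glycolysis genes 9 are highest in tumor 1, against 40.0% of all ranked genes.

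Glycolysis genes did not follow the score. Of 16 on the list 12 were ranked, 3 had a positive r, and the median was -0.219. Ldha, lactate dehydrogenase A, was 513, 1270, 744, 765, 643 and 645 CPM (r = -0.315). Aldoa, an aldolase, was 634, 1990, 1000, 1070, 1060 and 935 CPM (r = -0.141), and Pkm, pyruvate kinase, was 376, 1190, 426, 406, 513 and 431 CPM (r = -0.29). All 3 were highest in tumor 1 and lowest in tumor 2, the tumors with the lowest scores. Of the 12 genes 9 were highest in tumor 1, against 40.0% of all ranked genes. In tumor 2, 7 of the 12 were lowest, against 26.2% of all ranked genes. Without tumor 1 the median of the list was 0.38 and 10 of 12 were positive. Aldoc, Hk1 and Gpi1 had r of -0.166, -0.555 and -0.171. Tpi1, triosephosphate isomerase, was 90.1, 114, 142, 145, 140 and 202 CPM, with the highest r of the list at 0.857. Gapdh, Pgk1 and Pgam1 lay below the CPM limit (0.0 to 25.6 CPM), and these genes have near-identical processed copies in the genome, so their counts are uncertain.

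**Figure D4:**
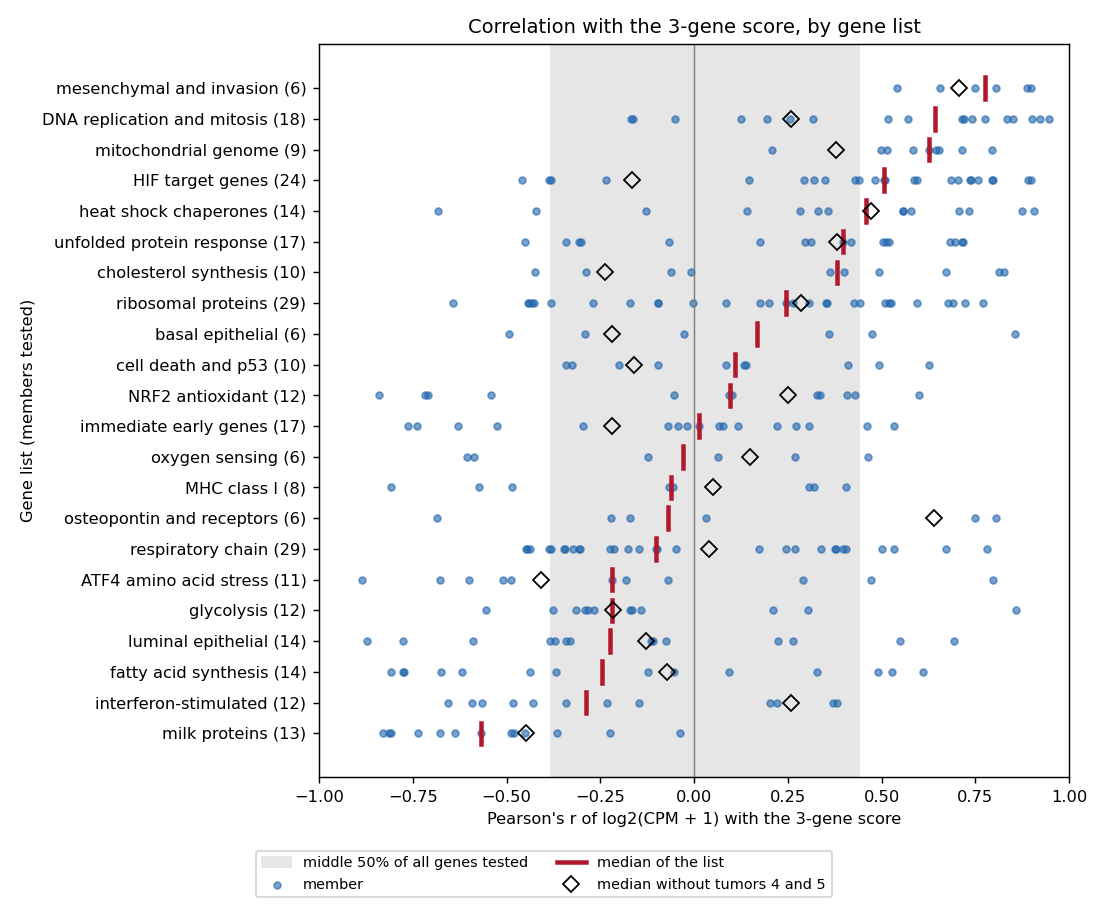
Pearson's r with the 3-gene score for the ranked members of each gene list with at least 6 of them (points), with the list's median over 6 tumors (red) and over 4 tumors, without tumors 4 and 5 (open diamond). The grey band spans the middle 50% of all ranked genes, -0.382 to 0.44, and the HIF target median moves from 0.507 to -0.166.

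Genes of DNA replication and mitosis mostly had a positive r. Of 30 on the list 18 were ranked, 15 were positive and the median was 0.643, which was 0.463 without tumor 5 and 0.259 without tumors 4 and 5. Ube2c, a ubiquitin-conjugating enzyme of the anaphase-promoting complex, was 10.8, 15.4, 17.4, 16.7, 19.1 and 43.3 CPM (r = 0.9, rho = 0.943, exact permutation p = 0.00417 and 0.0167). Cdc20, an activator of that complex, was 15.9, 13.9, 15.0, 21.8, 22.1 and 34.3 CPM (r = 0.946, rho = 0.829), and Mki67, the proliferation marker Ki-67, was 34.7, 41.6, 35.9, 35.6, 65.5 and 61.3 CPM (r = 0.851, rho = 0.714). Ube2c was highest in tumor 5, and Mki67 was high in tumors 4 and 5 and level elsewhere. The licensing factor Mcm7 and thymidylate synthase, Tyms, had r of -0.164 and -0.169.

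All 13 milk protein genes on the list were ranked, and none had a positive r over the 6 tumors. The median was -0.568, with -0.466 to -0.733 when 1 tumor was left out and -0.447 without tumors 4 and 5. Without tumors 4 and 5, 5 of the 13 had a positive r, and without tumor 5 alone 3 had. Of the 13 genes 8 were lowest in tumor 5 (61.5%, against 13.4% of all ranked genes). None had an unadjusted p under 0.05 by both measures. Wap, whey acidic protein, was 207, 318, 125, 110, 150 and 59.3 CPM (r = -0.809). Csn1s2a, a casein, was 98.4, 208, 46.9, 92.9, 106 and 10.6 CPM (r = -0.736), and Lalba, α-lactalbumin, was 575, 784, 529, 808, 465 and 208 CPM (r = -0.83). All 3 were lowest in tumor 5. Elf5, a transcription factor of alveolar luminal cells, was 202, 198, 189, 174, 183 and 119 CPM (r = -0.873, rho = -0.943, exact permutation p = 0.0139 and 0.0167). The luminal list as a whole had a median r of -0.223 (4 of 14 positive), and Epcam, by which the cells were sorted, was 611, 652, 972, 810, 625 and 839 CPM (r = 0.224).

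Among stress and metabolism lists, heat shock chaperones had a median r of 0.457 (11 of 14 positive) and the unfolded protein response 0.396 (12 of 17 positive), the latter falling to 0.0834 without tumor 2. Hspd1, the mitochondrial chaperonin HSP60, was 59.0, 75.8, 77.3, 84.9, 131 and 120 CPM (r = 0.905, rho = 0.943). Cholesterol synthesis genes had a median of 0.381 over 10 ranked genes, which was -0.237 without tumors 4 and 5 and 0.841 without tumor 1, and Hmgcs1, the enzyme before the rate-limiting step, was 22.3, 34.1, 34.6, 36.6, 61.5 and 49.1 CPM (r = 0.814, rho = 0.943). Both Hspd1 and Hmgcs1 were highest in tumor 4. All 9 ranked genes of the mitochondrial genome had a positive r (median 0.627), and tumor 1 was low for the rRNA mt-Rnr2, at 20300, 1440, 26100, 12600, 33700 and 25300 CPM. Respiratory chain genes of the nucleus had a median of -0.101 (12 of 29 positive), which was 0.409 without tumor 1, and ribosomal proteins had 0.246 (18 of 29 positive), which was -0.129 without tumor 2, -0.134 without tumor 5 and 0.473 without tumor 1. The fatty acid synthesis and amino acid stress (ATF4) lists had medians of -0.245 and -0.219, and that of the former was 0.12 without tumor 1. The remaining medians were 0.167 for basal epithelial, 0.109 for cell death and p53, 0.0962 for NRF2 antioxidant, 0.0126 for immediate early, 0.342 for 4 chemokine and myeloid factor genes, -0.134 for 4 checkpoint ligand genes and 0.00239 for 2 genes of the VEGF family. Without tumor 1 the medians were 0.337 for basal epithelial, 0.492 for cell death and p53, -0.209 for immediate early, 0.688 for chemokine and 0.147 for checkpoint ligand genes, and that of all ranked genes was 0.116.

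Spp1 and Cd274, the genes of osteopontin and PD-L1 on which the series centers, were not ordered by the score. Spp1 was 2950, 3310, 4310, 4070, 2050 and 3570 CPM, highest in tumors 6 and 3 and lowest in tumor 4 (r = -0.221, rho = 0.0857, exact permutation p = 0.664 and 0.919, adjusted p = 0.897 for r). Without tumors 4 and 5 its r was 0.819 over 4 tumors. Of the osteopontin receptors, Cd44 was 101, 77.2, 144, 194, 123 and 251 CPM (r = 0.748) and the integrin subunit Itgb1 was 142, 188, 227, 208, 218 and 282 CPM (r = 0.805, rho = 0.829, exact permutation p = 0.0431 and 0.0583), while Itgav had an r of -0.686. Both Cd44 and Itgb1 were highest in tumor 5. The list of osteopontin and its receptors had a median r of -0.0697, which was 0.193 without tumor 1. Cd274 was at 0.39 to 2.42 CPM, below the CPM limit, where 3 counts correspond to 0.509 to 1.2 CPM depending on the library, so that no order was detectable at this depth.

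The 2 prefixes of the mouse identifiers may mark a batch, although the labels do not say what they mark. Within the 4 QAF tumors r was 0.949 for Gja1, 0.889 for Vim, 0.867 for Tnc, 0.945 for Kdm3a, -0.939 for Ucp2, -0.907 for Cfb and -0.889 for Bcl3, and the median of the HIF target list was 0.511. These genes were chosen for their correlation over all tumors, and the QAF tumors include tumors 4 and 5. All 196 genes with an unadjusted p under 0.05 by both correlations kept their sign within QAF. Selection largely fixes this, so a batch effect was not tested by these values. The medians of some other lists changed sign within QAF, such as that of ribosomal proteins, from 0.246 to -0.159. The 2 QSD tumors are too few for a correlation. With 4 tumors the smallest p of rho is 0.0833, so no call can be made within a prefix.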

How the data were processed

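The libraries, made by oligo(dT) priming (QuantSeq FWD), read the 3′ ends of transcripts. The authors deposited raw counts per gene from HTSeq, after adapter trimming (bbduk) and alignment by STAR 2.5 against the GRCm38 genome. Whether molecular identifiers were collapsed, the strand setting and the annotation release are not given in the sources used here, so overlapping and antisense genes are uncertain, and intervals cover counting error only. The 5 lines that name no gene (16.1 to 41.4% of reads) were left out. From the deposited counts, CPM was computed per library, and log2(CPM + 1) was correlated with the score by exact permutation over 6 tumors. edgeR 4.0.16 (TMM factors, filterByExpr with a minimum count of 10 and a minimum total of 15 in 1 group, hence in all tumors) and DESeq2 1.42.0 fitted the score as a continuous term in R 4.3.3, and Python 3.11.15 did the rest. The edgeR model was tested on simulated data. There it recovered 12.0% of changed genes at a slope of 1 and 83.0% at a slope of 2, with 9.5% false calls. On the same simulated data, an unadjusted exact permutation p under 0.05 by both correlations was reached by 2.04% of unchanged genes. It was reached by 27.0% of changed genes at a slope of 1 and 69.6% at a slope of 2. DESeq2 was not tested in this way. Symbols came from GENCODE, with 419 identifiers unmatched. No 2 libraries matched within sampling noise (chi-square per degree of freedom of at least 20.7). Each p-value tests a correlation with the score, or a slope on it, over tumors, whose 6 identifiers differ.

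The members, gene lists and tests were chosen with earlier results of these data known. Genes named are the 10 highest and 10 lowest by rho, the 10 steepest slopes in each direction among genes with an unadjusted p under 0.05 by both measures, 7 fixed genes (the score genes, Spp1, Cd274, Hif1a and Epcam), list members with such a p, and up to 6 further HIF target and glycolysis genes of the highest mean CPM. A gene that this rule selects is not reported here. Other list members, Adamts1, Lao1 and Scgb2b27 were named after their values were seen. Alternatives were other scalings, pseudocounts, scores and CPM limits, the identifier prefix, and leaving out tumors, with a TPM-based score and DESeq2 without each tumor added after seeing the data.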

Additional observations from a re-analysis of the deposited data

Results flagged for a closer look

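In 8 of 77 sets of 6 values, the highest or lowest tumor was separated from its nearest neighbour by a share of the whole range above Dixon's 95% critical value, where about 1 in 20 sets, or 3.85, would be so by chance. Tumor 5 was the highest for Sdc1 (0.72), Vim (0.716) and Tnc (0.748) in log2(CPM + 1), and it was the lowest for Elf5 (0.721). Tumor 1 was the highest for Aldoc (0.65) and Pkm (0.731). Tumor 3 was the highest for the summed CPM of immune markers (0.835) and of erythroid markers (0.926). All these values belong to named genes or markers, several of which were chosen for a steep slope.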

How the results depend on the processing

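The number of genes with an unadjusted p under 0.05 by both correlations, 196, was 295 with TMM-scaled CPM, 100 with Slc2a1 alone as the score (0 genes shared with the 196), 91 with a TPM-based score, 307 with a limit of 5 CPM, 41 with 100 CPM and 400 with at least 1 count in every tumor. It ranged from 30 to 135 when 1 tumor was left out. The edgeR count of 0 was 1 at an adjusted p under 0.1, 5 with library totals, 31 with no filter, 4 with Car9 alone and 35 with DESeq2. Leaving out 1 tumor gave 0 to 74 genes, the highest with DESeq2 without tumor 1 and 0 with both tools without tumor 5, and 6 with edgeR without tumor 1. DESeq2 gave 31, 27, 34 and 61 genes without tumors 2, 3, 4 and 6. The causes of these differences were not tested. No gene named reversed its sign where it had been called. Of 60 named genes with an r, 48 with TMM-scaled CPM and 51 with DESeq2 size factors kept their direction and side of the threshold, but only 8 with Slc2a1 alone. No count was possible within QAF, without tumors 4 and 5, or with the prefix removed, since 4 tumors cannot reach the threshold and the last has no permutation p. No paired analysis was possible because all samples belong to 1 group. The 6 tumors, an unresolved order of tumors 1 and 2, and Car9 counts as low as 28 limit every ranking. So does the order of tumors 1, 2, 3 and 6, which changed with the score used.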
